A study of Mus musculus with 6 samples.

Results

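Mesenchymal glioblastoma is the expression subtype of human glioblastoma that is marked by matrix, adhesion and injury-response genes, and it is set against the proneural subtype, which is marked by genes of the oligodendrocyte lineage. Its levels were examined here through 10 listed marker genes, Chi3l1, Cd44, Tgfbi, Lgals3, Anxa1, Anxa2, Fn1, Met, Runx1 and Thbs1, in mouse glioma cells. The members were every probe set that the array's annotation gives to 1 of these symbols, which came to 21 of 22626 probe sets and 9 of 12393 genes; Chi3l1 was not analysed here, and 1 further probe set shared by Thbs1 and another gene was left out.

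The study hybridized 6 arrays of mouse high-grade glioma cells. In 2 of them the tumour driver was PDGF-B, a platelet-derived growth factor ligand, and the labelled strain BALBc; in 4 it was EGFRvIII, an EGF receptor that signals without ligand, and the labelled strain BALBc INK4a -/-. Per the labels, neural progenitors of day 14 embryos of the stated strain were transduced with a retrovirus carrying the driver and DsRed and grafted into the brain of adult BALBc mice, and fluorescent cells were sorted once symptoms began and the tumours had been dissociated. The labels name DsRed in one field and EGFP in another, and call the cells cultured as well as freshly sorted. The host strain and the embryonic stage of the grafted cells were shared, while driver and INK4a genotype changed in step, so that their effects cannot be told apart. The sources used here do not give the promoter of the vector, the age of the hosts or the number of tumours behind an array. The labels call the arrays biological replicates, and p-values measure the spread between them.

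The mesenchymal programme joins secreted matrix proteins to the surface receptors that bind them and to cytosolic proteins of membrane repair and motility. In human glioblastoma it has been linked to the transcription factors STAT3 and C/EBP beta, to NF-kappa B and the YAP and TAZ co-activators, to loss of NF1 and to a tissue rich in macrophages and microglia. Many of its markers, among them Lgals3, Anxa1 and Cd44, are made by macrophages as well as by tumour cells.

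Levels are log2 probe set intensities (mean ± SD). A log2 fold change is the EGFRvIII mean less the PDGF-B mean, and SE is its standard error. A gene was represented by its brightest probe set and tested where this lay above the median of the array in at least 2 arrays, which held for 3 of the 9 members (Anxa2, Fn1 and Runx1) and for 6761 of all genes. A call was a limma adjusted p under 0.05 over all tested genes. Intensities of different probe sets depend on the probes, so levels were compared only within a probe set, and a dim value bounds a transcript poorly.

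Pearson's r across genes was at least 0.919 for arrays that shared a driver and at most 0.938 for arrays that did not. EGFRvIII replicate 2 stood apart on the second principal component, at -30.8 against -7.10 to 16.2 for the others. Cdkn2a, the locus of p16INK4a, had a mean of 6.80 ± 0.04 under PDGF-B and 3.76 ± 0.04 under EGFRvIII. Xist was low and the Y-linked Kdm5d high in EGFRvIII replicates 1 and 2 alone. The mean over oligodendrocyte progenitor markers was between 11.64 and 12.09 in all arrays; the 2 with the smallest p, Ptprz1 and Pdgfra, differed by 0.44 and -0.86 on the log2 scale (limma adjusted p = 0.0879 and 0.151). None of 37 markers of microglia and macrophages, endothelium, pericytes and fibroblasts or T and NK cells was bright enough to be tested, and their group means ran from 2.97 to 6.19. The array medians were 0.12 higher on average in EGFRvIII cells. The median log2 fold change was 0.06 over all tested genes and -0.003 over all measured genes, so 0.12 was not a shift of every gene.

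The set of RefSeq promoter sequences used here (GRCm38.p6) covered 7 of the 9 members. Fn1 and Thbs1 have annotated positions but were not in that set. On their brightest probe sets Anxa2, Cd44 and Anxa1 were highest in EGFRvIII replicate 3, as were Fn1 and Lgals3. The first 3 were picked after their values were seen. To show where these 3 begin, the 250 bases before the annotated start of each are printed. They were searched on both strands for motifs of factors tied to the mesenchymal programme, namely TGANTCA (AP-1), TTCNNNGAA (STAT), GGAATG (TEAD, the partner of YAP and TAZ) and TGTGGT (RUNX); capitals mark each match.
Anxa2, chr9:69453433-69453682, plus strand: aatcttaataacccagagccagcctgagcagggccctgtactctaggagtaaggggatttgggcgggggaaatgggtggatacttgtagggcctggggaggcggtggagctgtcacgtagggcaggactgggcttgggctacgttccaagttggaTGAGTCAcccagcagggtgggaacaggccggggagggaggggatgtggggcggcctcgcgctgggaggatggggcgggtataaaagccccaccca
Cd44, chr2:102901666-102901915, minus strand: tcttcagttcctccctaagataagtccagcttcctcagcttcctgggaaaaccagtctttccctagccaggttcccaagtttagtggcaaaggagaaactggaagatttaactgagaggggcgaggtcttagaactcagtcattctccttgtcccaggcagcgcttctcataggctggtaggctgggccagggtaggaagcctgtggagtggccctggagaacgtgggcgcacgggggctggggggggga
Anxa1, chr19:20390672-20390921, minus strand: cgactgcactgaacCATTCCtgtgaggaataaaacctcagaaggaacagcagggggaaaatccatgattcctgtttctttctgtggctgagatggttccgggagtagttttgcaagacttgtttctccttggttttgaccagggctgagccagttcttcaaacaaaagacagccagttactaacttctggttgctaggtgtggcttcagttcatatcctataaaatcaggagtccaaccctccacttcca
The Anxa2 window held 1 AP-1 match and no other, the Anxa1 window held 1 TEAD match on the opposite strand, and these letters were not in the Cd44 window. Of 32841 promoter windows of this length, 6.75% held the AP-1 motif, 7.02% the STAT motif, 12.6% the TEAD motif and 14% the RUNX motif. The 7 members had 8 promoters, since Runx1 had more than 1. Of the others, that of Met held 1 AP-1 match, and the Runx1 promoter at chr16:92697330-92697579 held 1 TEAD match. The other Runx1 promoter and those of Tgfbi and Lgals3 held no match. No matches overlapped, and a match is a description of the letters only.

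None of the 3 tested members was called between the drivers, where 2.23% of all tested genes were (1.64% higher and 0.592% lower in EGFRvIII cells). At an unadjusted p under 0.05 there were 2 of 3 (Fn1 and Runx1), against 25% of all tested genes, and the same 2 had groups that did not overlap, against 37.4%. Fn1 was higher in every EGFRvIII array, which held for 22.5% of tested genes, and Runx1 lower, which held for 14.9%. Fn1 passed the filter through EGFRvIII arrays alone and Runx1 through PDGF-B arrays alone, so counts over the tested members lean towards a difference and describe those members only. The same limit holds for Casp1, Cebpd, Yap1 and Anxa5 (EGFRvIII arrays alone) and Cebpb (PDGF-B arrays alone) in the lists below. Of all 9 measured members, 6 had a log2 fold change above 0 and 3 one below it; the median was 0.10. Over all measured genes that median was -0.003. Across the 21 probe sets the groups did not overlap in 4, against 31.5% of all probe sets, and none was called, against 0.849%. With no filter on dim genes 3 of the 9 members (Fn1, Runx1 and Thbs1) had an unadjusted limma p under 0.05, against 20.5% of all genes, and none was called, against 0.621%.

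**Figure D1:**
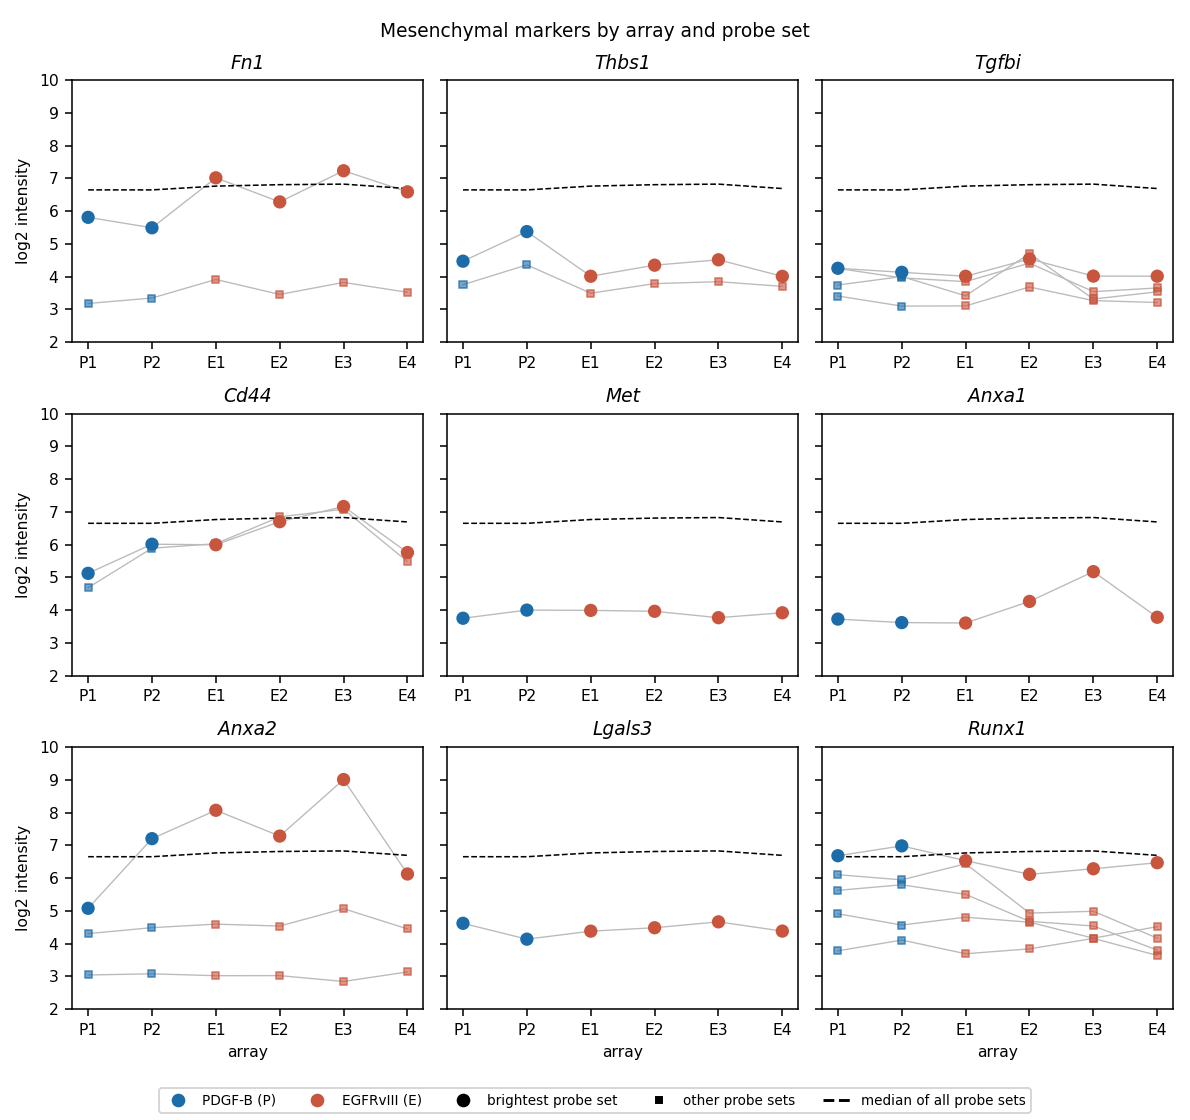
Log2 intensity (y axis) of each of the 9 members in the 2 PDGF-B arrays (P1, P2) and the 4 EGFRvIII arrays (E1 to E4), with 1 large point per array for the brightest probe set and small squares for the others; grey lines join the values of a probe set and the dashed line is the median of all probe sets of each array. Fn1 is higher in all EGFRvIII arrays, Anxa2 and Cd44 span a wide range within both drivers, and Tgfbi, Met, Lgals3, Anxa1 and Thbs1 stay below the dashed line in every array.

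Among the matrix proteins, Fn1 came closest to a call. Fn1 encodes fibronectin, the adhesive glycoprotein that cells bind through integrins and syndecans. Its log2 intensity was 5.81 and 5.49 in the PDGF-B arrays and 7.02, 6.28, 7.24 and 6.59 in EGFRvIII replicates 1 to 4. Every EGFRvIII array was above both PDGF-B arrays, and replicates 1 and 3 were the highest. The means were 5.65 ± 0.23 (n = 2) and 6.78 ± 0.43 (n = 4), a log2 fold change of 1.13 (SE 0.28, 95% interval 0.47 to 1.79; 2.19-fold), with a limma adjusted p of 0.0735. EGFRvIII replicate 2, the array that stood apart, also held the lowest EGFRvIII value of Fn1. Without that array the limma adjusted p was 0.0454 at a log2 fold change of 1.30. Over the other settings that kept both PDGF-B arrays and gave Fn1 a p, the limma adjusted p ran from 0.0625 to 0.203. Without EGFRvIII replicate 1, or without EGFRvIII replicate 3, Fn1 did not pass the filter and had no p. The log2 fold change was 1.29 without PDGF-B replicate 1 and 0.97 without PDGF-B replicate 2. The other Fn1 probe set was dim in all arrays and had the same order of groups, from 3.18 and 3.35 in PDGF-B to between 3.46 and 3.92 in EGFRvIII cells, a log2 fold change of 0.42 (SE 0.17).

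Thbs1 encodes thrombospondin-1, a matrix protein that restrains vessel growth and can activate latent TGF-beta. It lay below the array median everywhere and was not tested under the filter. Its brighter probe set read 4.47 and 5.38 in the PDGF-B arrays and 4.01, 4.35, 4.52 and 4.01 in the EGFRvIII arrays. PDGF-B replicate 2 was the highest array, while PDGF-B replicate 1 lay inside the EGFRvIII range, so the groups overlapped. The log2 fold change was -0.70, and -0.25 without PDGF-B replicate 2, against -1.15 without PDGF-B replicate 1. With no filter on dim genes the limma adjusted p was 0.219. The other Thbs1 probe set ran from 3.50 to 4.36 and was also highest in PDGF-B replicate 2.

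Tgfbi, a secreted adhesion protein induced by TGF-beta, was dim on all 4 of its probe sets. On the brightest it read 4.26 and 4.13 in PDGF-B and 4.01, 4.54, 4.02 and 4.02 in EGFRvIII cells. EGFRvIII replicate 2 was the highest array on all 4 probe sets, reaching 4.71 on the one with the widest range, where the other arrays lay between 3.32 and 4.00. The group means, 4.2 ± 0.09 and 4.15 ± 0.26, gave a log2 fold change of -0.05 (95% interval -0.49 to 0.39 with no filter).

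The receptors among the members are Cd44, the hyaluronan receptor, and Met, the receptor tyrosine kinase for hepatocyte growth factor. Cd44 was at 5.12 and 6.01 in the PDGF-B arrays and at 6.0, 6.70, 7.16 and 5.76 in the EGFRvIII arrays. EGFRvIII replicates 2 and 3 were above every other array, while replicates 1 and 4 were no higher than PDGF-B replicate 2. The log2 fold change was 0.84 (95% interval -0.19 to 1.86), and with no filter the limma adjusted p was 0.324. Leaving out PDGF-B replicate 1 made it 0.39, and leaving out replicate 2 made it 1.28. On the other Cd44 probe set the log2 fold change was 1.07 and the order of arrays nearly the same, with PDGF-B replicate 1 lowest at 4.68 and EGFRvIII replicate 3 highest at 7.08. Cd44 lay just outside the filter, since its brightest probe set passed the array median in 1 array where 2 were needed, and the other probe set passed it in 2.

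Met read 3.75 and 4.00 in PDGF-B and 3.99, 3.96, 3.77 and 3.92 in EGFRvIII cells. All 6 arrays lay within the spread of the PDGF-B pair. The log2 fold change was 0.03 (95% interval -0.29 to 0.35) and changed sign to -0.09 when the arrays were centred on their medians. Hgf, its ligand, which was picked after its values were seen, was likewise dim, at 4.87 ± 0.22 and 4.80 ± 0.21.

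Annexins are calcium-dependent membrane-binding proteins, and both that were listed were highest in EGFRvIII replicate 3. Anxa2, which acts with S100A10 at the plasma membrane and can bind plasminogen, had the widest range of the members. It read 5.08 and 7.20 in the PDGF-B arrays and 8.07, 7.28, 9.01 and 6.12 in EGFRvIII replicates 1 to 4. The groups overlapped, since PDGF-B replicate 2 lay above EGFRvIII replicate 4, and the PDGF-B arrays alone differed by 2.13 on the log2 scale. The means were 6.14 ± 1.50 and 7.62 ± 1.22, a log2 fold change of 1.48 (SE 0.87, 95% interval -0.58 to 3.55) with a limma adjusted p of 0.331. It was 0.42 without PDGF-B replicate 1 and 2.55 without PDGF-B replicate 2, so the size rested on the choice of the PDGF-B array. The SD of Anxa2 among the EGFRvIII arrays was larger than that of 98.8% of tested genes. A dimmer Anxa2 probe set kept the order of all 6 arrays over a range of 4.30 to 5.06, and another stayed at or below 3.13 in all of them.

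Anxa1, an annexin that dampens inflammation through formyl peptide receptors, was near the bottom of the scale in 4 arrays. It read 3.73 and 3.62 in the PDGF-B arrays and 3.61, 4.27, 5.18 and 3.78 in the EGFRvIII arrays. EGFRvIII replicates 2 and 3 lay clear above the PDGF-B pair, and replicates 1 and 4 were close to it. The log2 fold change was 0.53 (95% interval -0.44 to 1.51) and 0.21 without EGFRvIII replicate 3. Lgals3, which encodes galectin-3, a lectin that binds beta-galactosides, read 4.62 and 4.13 in the PDGF-B arrays and 4.38, 4.48, 4.66 and 4.38 in the EGFRvIII arrays. The PDGF-B pair spanned nearly all of these values, and the log2 fold change was 0.10 (95% interval -0.31 to 0.51).

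Runx1, the transcription factor that binds DNA with CBF beta and is known for its part in blood formation, had a lower EGFRvIII mean on all 5 of its probe sets, though arrays overlapped on 3 of them. The brightest probe set read 6.68 and 6.98 in the PDGF-B arrays and 6.53, 6.11, 6.28 and 6.47 in the EGFRvIII arrays. All EGFRvIII arrays were below both PDGF-B arrays. The log2 fold change was -0.48 (SE 0.17, 95% interval -0.88 to -0.08) with a limma adjusted p of 0.147.

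The 5 Runx1 probe sets differed in how far they separated the arrays. The second brightest probe set read 6.10 and 5.94 in PDGF-B and 6.44, 4.93, 4.98 and 4.17 in EGFRvIII cells. On it EGFRvIII replicate 1 was the highest of all arrays and replicate 4 the lowest, a range of 2.27 within a driver. The third brightest read 5.62 and 5.79 against 5.50, 4.68, 4.54 and 3.80, with the same EGFRvIII arrays at either end, and its log2 fold change was -1.08 (SE 0.41; limma adjusted p = 0.212 over all probe sets). The brightest probe set spanned 0.42 among the same 4 arrays. The remaining pair of probe sets was dim, with log2 fold changes of -0.20 and -0.11. The sources used here do not give the Runx1 transcripts that each probe set detects.

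**Figure D2:**
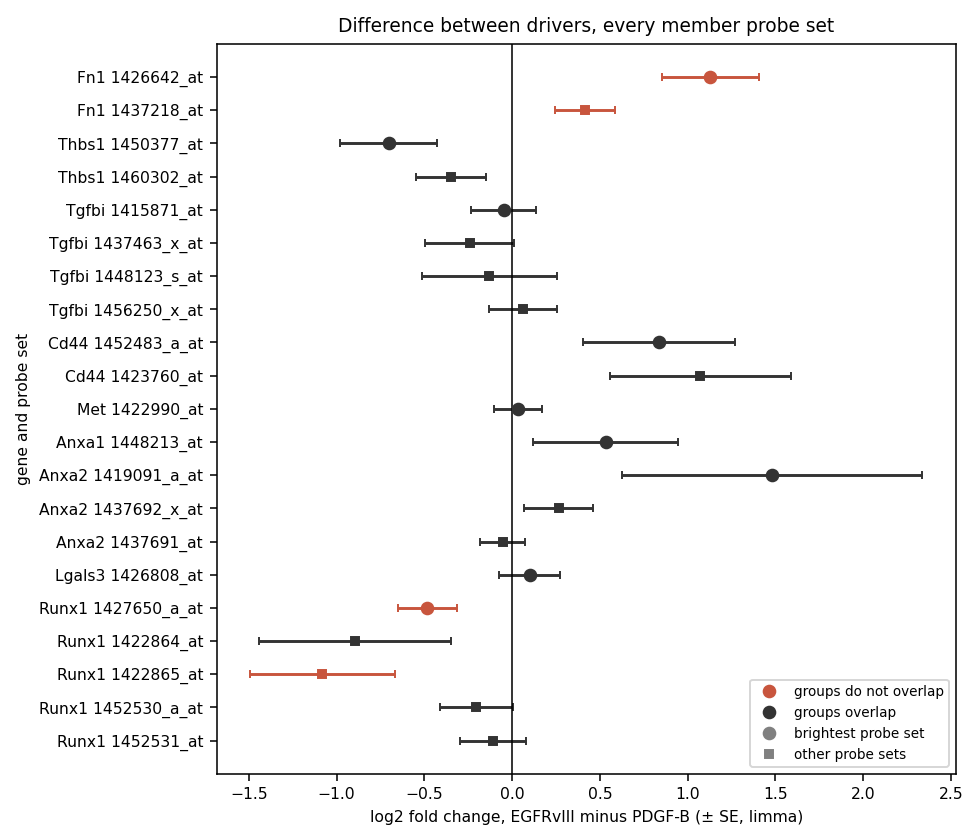
Log2 fold change (x axis, EGFRvIII minus PDGF-B, error bars ± SE from limma over all probe sets) of each of the 21 member probe sets (y axis), with circles for the brightest probe set of a gene and squares for the others. The Fn1 pair lies to the right of 0 and all 5 Runx1 probe sets to the left, and the 4 coloured points are those whose groups did not overlap.

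Across the 6 arrays, members differed in which arrays were high. Anxa2 and Cd44 were lowest in PDGF-B replicate 1 and highest in EGFRvIII replicate 3. Their Pearson correlation was 0.87 over the 6 arrays, and 2.71% of tested genes correlated more closely with Anxa2. Anxa1, Fn1 and Lgals3 were highest in that same array. Anxa1 had a correlation of 0.83 with Cd44 and 0.62 with Anxa2, and 18.2% of tested genes correlated more closely with Anxa2. By rank (Spearman's rho) Anxa1 had only 0.54 with Cd44 and 0.26 with Anxa2, against 0.83 for Anxa2 with Cd44. For Fn1 the correlation with Anxa2 was 0.65, with 15.9% of tested genes closer, and for Lgals3 it was 0.03. These arrays share the difference between drivers, and genes are not independent, so the correlations are descriptions. Thbs1 and Tgfbi had no such likeness to Anxa2, at 0.05 and -0.28.

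Among tested genes outside the list, the 2 most like Anxa2 were Ebpl and Tmem63a (r = 0.99 and 0.98 over 6 arrays). For Fn1 they were Pccb and Srsf5 (both 0.99) and for Runx1 they were Ciao2a and Hnrnph1 (0.99 and 0.97). With 6 arrays such values are common: 100 tested genes had r above 0.9 with Anxa2, 323 with Fn1 and 106 with Runx1.

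**Figure D3:**
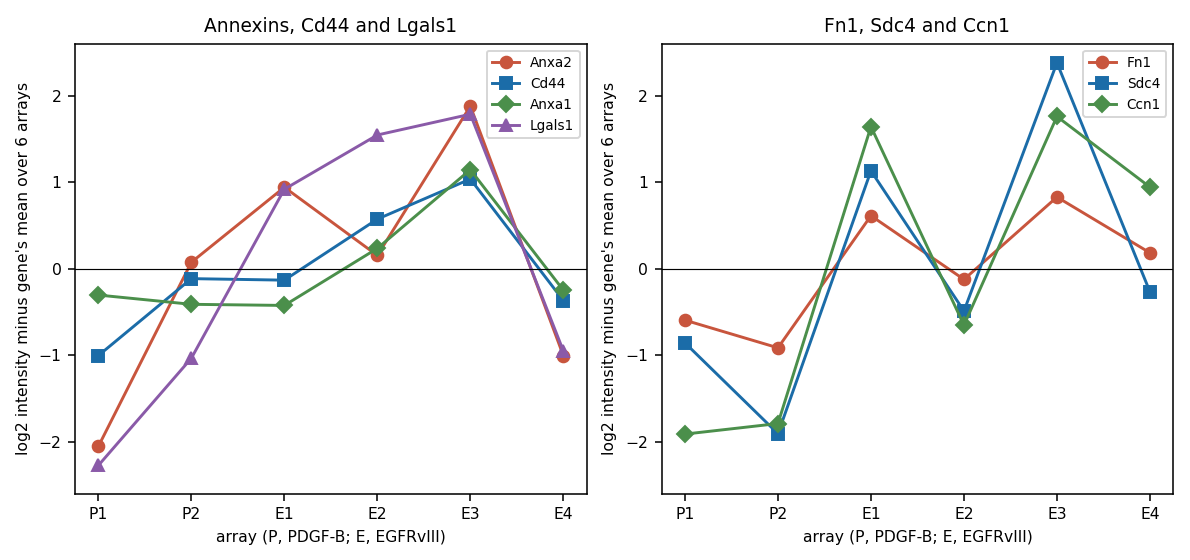
Log2 intensity minus the gene's mean over the 6 arrays (y axis) in the PDGF-B (P) and EGFRvIII (E) arrays (x axis), with 1 line per gene drawn to guide the eye, for Anxa2, Cd44, Anxa1 and Lgals1 on the left and Fn1, Sdc4 and Ccn1 on the right. On the left EGFRvIII replicate 3 is the highest array for all 4 genes, and on the right EGFRvIII replicates 1 and 3 are the highest for all 3. The genes of each panel were put together with their values known, so the shared high arrays are a description only.

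Markers of astrocytes were also highest in EGFRvIII replicate 3 on average. The mean of the 6 astrocyte markers was 6.53 and 6.43 in the PDGF-B arrays and 8.01, 6.68, 8.68 and 7.49 in EGFRvIII replicates 1 to 4. Aldoc, an aldolase of astrocytes, had a log2 fold change of 0.97 (limma adjusted p = 0.259) and Slc1a3, a glutamate transporter, one of 1.10 (limma adjusted p = 0.362), and the groups overlapped for both. Gfap, the astrocyte intermediate filament, reached 7.68 in replicate 3, against 4.84 and 4.60 in PDGF-B cells, and Aqp4, the water channel of astrocyte endfeet, was at 6.53 and 6.02 in replicates 1 and 3 and at 3.12 in replicate 2, against 2.99 and 3.10; neither was bright enough to be tested. None of the 3 tested astrocyte markers was called. Their part in the levels of Anxa2, Cd44, Anxa1 and Fn1 was not tested, and a change in the number of such cells cannot be told from a change of RNA per cell. The mean of the 14 microglia and macrophage markers was 4.09 in EGFRvIII replicate 3, the lowest of the 6 arrays, and at most 4.32, with Ptprc (CD45) at 2.97 and 3.06 in EGFRvIII and PDGF-B cells. Of these 14 markers, 5 had a log2 fold change above 0, and none was bright enough to be tested. Among them, Cd68 read 5.68 and 5.69 in the PDGF-B arrays and 5.79, 6.51, 6.16 and 5.63 in the EGFRvIII arrays. Of the pericyte and fibroblast markers Acta2, smooth muscle actin, was at 7.33 in EGFRvIII replicate 3 and 4.60 and 4.99 in PDGF-B cells, while the mean of that list stayed between 4.70 and 4.98. Gfap, Aqp4, Ptprc, Cd68 and Acta2 were picked after their values were seen.

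Of the 27 other mesenchymal signature genes measured, 6 were tested and none was called. At an unadjusted limma p under 0.05 there were 2 (Ccn1 and Casp1), against 25% of all tested genes. The median log2 fold change of the 6 was 0.21, against 0.06 over all tested genes, and that of all 27 was -0.005, against -0.003 over all measured genes. Ccn1, a matricellular protein induced by YAP and TAZ, read 6.97 and 7.09 in the PDGF-B arrays and 10.52, 8.23, 10.64 and 9.83 in the EGFRvIII arrays. The groups did not overlap, and its log2 fold change of 2.77 (SE 0.65) had a limma adjusted p of 0.0669. Without EGFRvIII replicate 2 it was 0.00681, and without any other single array it lay between 0.101 and 0.247. Casp1, the inflammatory caspase, read 4.19 and 4.28 against 4.86, 6.82, 7.12 and 5.20, a log2 fold change of 1.76 (limma adjusted p = 0.166), and was tested only because EGFRvIII replicates 2 and 3 passed the median. Vim, the intermediate filament vimentin, was bright and close between the drivers at 13.06 ± 0.09 and 12.96 ± 0.14, and was picked after its values were seen.

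Of the 15 measured mesenchymal transcription regulators, 7 were tested and 1 was called, against 2.23% of all tested genes. At an unadjusted limma p under 0.05 there were 2 (Zeb2, higher in EGFRvIII cells, and Cebpb, lower), against 25% of all tested genes. Zeb2, a zinc finger repressor of epithelial genes that is also active in the oligodendrocyte lineage, rose from 9.35 and 9.32 in the PDGF-B arrays to 10.86, 10.51, 10.10 and 10.57 in the EGFRvIII arrays. Its log2 fold change was 1.18 (SE 0.21) with a limma adjusted p of 0.048. Of 18 other settings, 12 put it above the threshold, the highest adjusted p being 0.189. Of the regulators named with the human subtype, Cebpb had a log2 fold change of -1.04 (limma adjusted p = 0.132) and Stat3 one of 0.32 (limma adjusted p = 0.375). Yap1 spread from 5.37 in EGFRvIII replicate 2 to 8.68 in replicate 3, against 5.38 and 5.36 in PDGF-B cells. Cebpb, Stat3 and Yap1 were picked after their values were seen.

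Of 13 measured binding partners and receptors of the members, 6 were tested and none was called. At an unadjusted limma p under 0.05 there was 1, against 25% of all tested genes. Sdc4, the syndecan that binds fibronectin beside integrins, read 7.13 and 6.08 in the PDGF-B arrays and 9.12, 7.50, 10.37 and 7.72 in the EGFRvIII arrays. Its groups did not overlap, and EGFRvIII replicates 1 and 3 were highest, as for Fn1. The log2 fold change was 2.07 (SE 0.81; limma adjusted p = 0.179). Cd47, a receptor of thrombospondin-1, was bright in both groups, with a log2 fold change of -0.30 (limma adjusted p = 0.335).

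Of 15 measured relatives of the members, 4 were tested and none was called. At an unadjusted limma p under 0.05 there were 3 (Lgals8, Lgals1 and Anxa5), against 25% of all tested genes, and Anxa5 was tested through EGFRvIII arrays alone. Lgals1, which encodes galectin-1, read 7.81 and 9.05 in the PDGF-B arrays and 11.01, 11.63, 11.87 and 9.14 in the EGFRvIII arrays. The groups were apart by the small gap between PDGF-B replicate 2 and EGFRvIII replicate 4, and the log2 fold change of 2.48 (SE 0.78) had a limma adjusted p of 0.118. Lgals8, galectin-8, had a smaller difference with less spread, from 7.27 ± 0.07 to 8.04 ± 0.18 (limma adjusted p = 0.055). The annexin Anxa5, picked after its values were seen, read 5.69 and 6.02 against 7.33, 8.06, 8.53 and 5.91, with EGFRvIII replicate 3 the highest array and replicate 4 inside the PDGF-B range (limma adjusted p = 0.199).

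Of the 12 genes of the TGF-beta axis, 6 were tested, none was called and none had an unadjusted limma p under 0.05. Their median log2 fold change was 0.00. Tgfbr1, the type I receptor, and Skil, an inhibitor of SMAD proteins, differed by -0.22 and 0.19 on the log2 scale, with limma adjusted p of 0.352 and 0.658.

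All 12 measured proneural genes were tested, as 54.6% of all genes were. None of the 12 was called, and the median log2 fold change was 0.05. At an unadjusted limma p under 0.05 there were 4, against 25% of all tested genes, of which 2 were higher and 2 lower in EGFRvIII cells. Nkx2-2, a homeobox factor of oligodendrocyte progenitors, had a log2 fold change of 2.05 (limma adjusted p = 0.0546) and Bcan, the proteoglycan brevican, one of 0.81 (limma adjusted p = 0.0619). The 2 lower genes were Sox11, a factor of immature neural cells that was picked after its values were seen, at -1.11 (limma adjusted p = 0.0669), and Pdgfra, the PDGF receptor alpha, at -0.86.

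**Figure D4:**
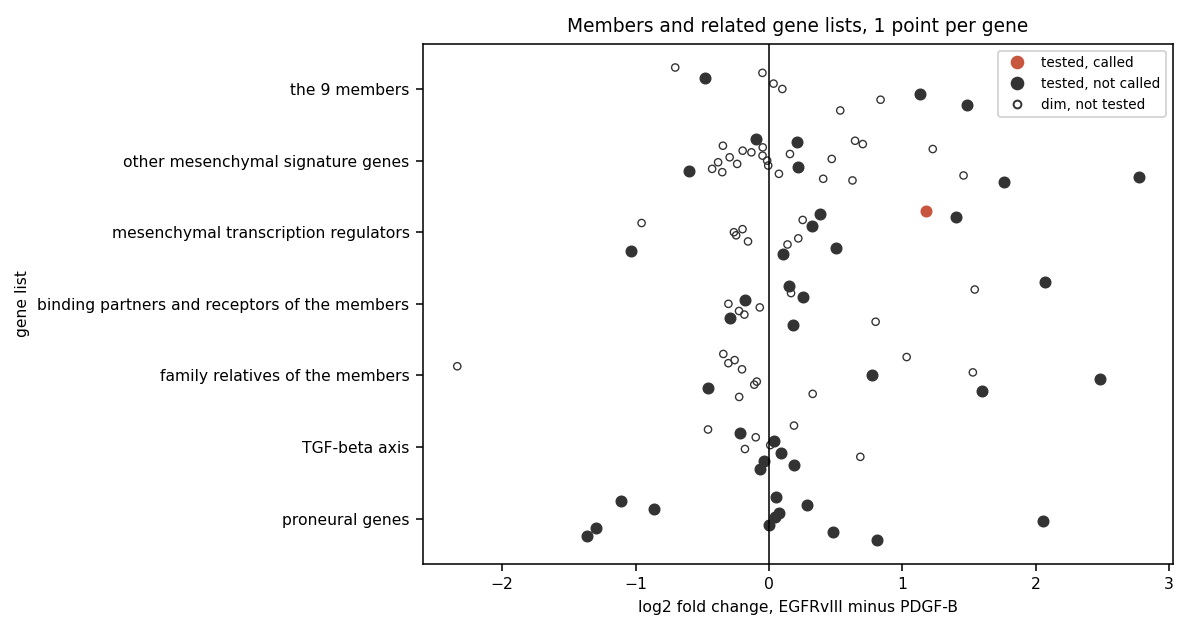
Log2 fold change (x axis, EGFRvIII minus PDGF-B) of each measured gene, 1 point per gene, in the 9 members and 6 related lists (y axis), with filled points for tested genes, open points for genes too dim to be tested and a coloured point for the called gene. Zeb2 is the 1 coloured point, and the filled points to the right of 2 are Ccn1, Sdc4, Lgals1 and Nkx2-2.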

How the data were processed

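RNA of the sorted cells was amplified, biotin labelled and hybridized to Affymetrix mouse arrays, per the labels' protocols. The authors deposited 1 log2 intensity for every probe set and array. RMA and affy 3.4.2 are named in the submitters' processing notes; values ran from 2.22 to 14.4, which is how base 2 was inferred. Both deposited tables held the same values to within 5e-09.

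Of 22690 probe sets, 64 were controls. Of the others 20380 carried 1 gene symbol, 691 several and 1555 none in the annotation, and 20351 found a current gene through the Entrez identifier. A gene took its probe set with the highest mean, and 6761 of 12393 genes passed the filter. The groups were compared with limma 3.58.1 in R 4.3.3 (two-sided, Benjamini-Hochberg adjustment over all tested genes; residual degrees of freedom 4, prior 2.81), and each probe set also in a fit over all 22626. Detection calls were not used, and the number of arrays limits the precision. The fit was tested on simulated data.

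The members, lists and tests were chosen with earlier results of these data known. Named are all members, of each other list up to 4 called genes or else the 2 with the smallest p, and the 2 genes most like each tested member; further genes are marked as picked later. A probe set's cross-hybridization cannot be judged from its values. Alternatives covered scaling, filters, probe sets, variance models, array weights, the replicate number, sex and each array left out. Figures were drawn with matplotlib 3.10.9.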

Additional observations from a re-analysis of the deposited data

Results flagged for a closer look

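Within EGFRvIII, 50 sets of 4 values were searched for a lone extreme array by Dixon's criterion; 4 were found, and about 1 in 20 arise by chance. Tgfbi had EGFRvIII replicate 2 at 4.54 on its brightest probe set, with the others between 4.01 and 4.02, and at 4.71 on another probe set, with the others between 3.32 and 3.54; both are dim. Bcan was at 10.57 in EGFRvIII replicate 3, with the others between 10.06 and 10.12. Cdkn2a was at 3.70 in EGFRvIII replicate 3, with the others at 3.78, near the bottom of the scale.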

How the results depend on the processing

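The count of members called was 0 in each setting run other than the fit without EGFRvIII replicate 2, where it was 1 (Fn1), so that it ran from 0 to 1 with an array left out; the number tested changed with the filter, and no member was tested when a gene had to pass the median in all 6 arrays or was averaged over its probe sets. Of the 9 measured members 6 kept the sign of their log2 fold change in every setting that gave a value; Lgals3, Met and Tgfbi, with values near 0, did not. The count over all genes, 151, was 77 with no filter, 265 when a gene had to pass the median in all 6 arrays, 254 with a trended robust variance, 3 with the Xist value as a covariate, 25 in the 4 arrays with high Xist and 5 at an adjusted p under 0.01. With an array left out it ran from 0 (without PDGF-B replicate 1, with 1114 genes at an unadjusted limma p under 0.05) to 187 (without EGFRvIII replicate 2). The count over the 6 related lists, 1 of 41 tested genes, was 0 with centred arrays, with quantile normalization, with no filter, with the Xist covariate and at an adjusted p under 0.01, 2 with probe sets averaged per gene, 3 with the trended robust variance, 6 with the filter on all 6 arrays, and 0 to 2 with an array left out. Tgfbr1 changed sign to 0.0415 with probe sets averaged. Replicate numbers 1 and 2 occur in both groups, and their deviations from the group means correlated by 0.20 and 0.25 across genes. The deviations of the 2 PDGF-B arrays mirror each other, so these values are not independent and cannot settle a pairing. The numbers are not taken to pair the samples. With the replicate block 9 genes were called, 0 of the members and 0 of the lists, and the log2 fold change of Fn1 was 1.00. The causes of these changes were not tested, and some settings also differed in the number of arrays or genes.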
